A study of Drosophila melanogaster with 4 samples.

Results

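The gypsy-group errantiviruses are LTR retrotransposons of Drosophila that carry gag and pol reading frames and, like vertebrate retroviruses, an env reading frame for an envelope protein. Several of them are known to be transcribed in the somatic follicle cells that surround the germline cysts, and gypsy and ZAM are known to pass from these cells into the oocyte. In follicle cells they are held down by Piwi, the PIWI-clade Argonaute protein of the somatic pathway, which is guided to nascent transcripts by piRNAs that come mainly from the flamenco locus. The group comprised 10 families chosen by name, gypsy, ZAM, Idefix, Tirant, 17.6, 297, Quasimodo, rover, gtwin and Tabor. All 10 were found among the 126 transposon consensus sequences of the tables, which hold 29637 targets in all.

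RNA was taken from Drosophila melanogaster ovaries in 2 libraries of each of 2 groups. Both groups carried 1 copy of vasa-GAL80[ts], a temperature-sensitive GAL80 driven by the germline gene vasa, and da-GAL4, a GAL4 driven by daughterless. The third transgene was shwhite in the control (white-embKD), a hairpin against an eye-colour gene, or shpiwi (piwi-embKD), a hairpin against piwi. Stocks were kept at 18 °C and embryos were placed at 28 °C in both groups, while the age of the females, and the temperature at which adults were held before dissection, are not stated in the labels. The series asked whether Piwi is needed in the embryo for transposon repression in the adult ovary. Because GAL80 was driven by a germline promoter, and da-GAL4 is known to be widely active, the cells in which the hairpins acted were not resolved by these samples.

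The level used throughout is the authors' normalized effective count, an estimate by eXpress of the fragments that belong to each target, summed over the transcripts of a gene. Depth, inferred from the smallest step in each column, was between 16194219 and 20025084 effective counts per library. Levels are not divided by length, and the lengths of the consensus sequences were not used here, so levels of different families are not ranked against each other. For piwi the level was 410.0 and 401 in the white-embKD libraries and 238 and 121 in the piwi-embKD libraries (here and below, replicate 1 before replicate 2). The piwi level of these libraries was therefore 58.5% and 29.9% of the white-embKD mean, a log2 change of −1.25 ± 0.29 SE that did not pass the test (limma adjusted p = 0.0572). The change was −1.73 for piwi-embKD replicate 2 alone and −0.77 for replicate 1 alone. Here and below, a fit with 1 library left out takes the own spread of a gene from the pair left whole and assumes that the lone library varies like it, so the gap between the piwi-embKD libraries does not enter a fit that holds only 1 of them. Such fits gave piwi a limma adjusted p of 7.14e-05 and 0.00178, which do not test the knockdown against the spread between piwi-embKD ovaries. The gene white (w) was at 1.35 and 1.19 in white-embKD and at 3.34 and 2.87 in piwi-embKD, and this difference did not pass either (limma adjusted p = 0.103). With the spread of the white-embKD pair alone it was at 0.0375 for piwi-embKD replicate 2 and 0.0323 for replicate 1.

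All 10 families were higher in both piwi-embKD libraries than in both white-embKD libraries. Over all features tested, 25.9% showed such a separation. So did 8 of 9 other named gypsy-group families and 7 of 11 numbered gypsy families, both described below. In the test across 8172 genes, transposon families and unmatched transcripts (limma with an intensity trend, adjusted p under 0.05), 7 of the 10 families rose and 0 fell. Tirant, gypsy, Idefix, Quasimodo, 297, rover and 17.6 passed, and ZAM, Tabor and gtwin did not. Before adjustment, limma gave p under 0.05 for 8 families, all of them higher. The same held for 8 of 9 other named and 4 of 9 tested numbered gypsy families. The share of all features at this unadjusted threshold was not worked out. After adjustment, 5.04% of all features were called higher and 1.65% lower. Of the other 97 transposon families tested, 54 were called higher as well, and no family was called lower, so such calls were common among transposons. The median log2 change of the 10 families was 1.59, against −0.04 for all features and 0.91 for the other 97 transposon families tested. All 10 families passed the minimum on the mean level over the 4 libraries.

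**Figure D1:**
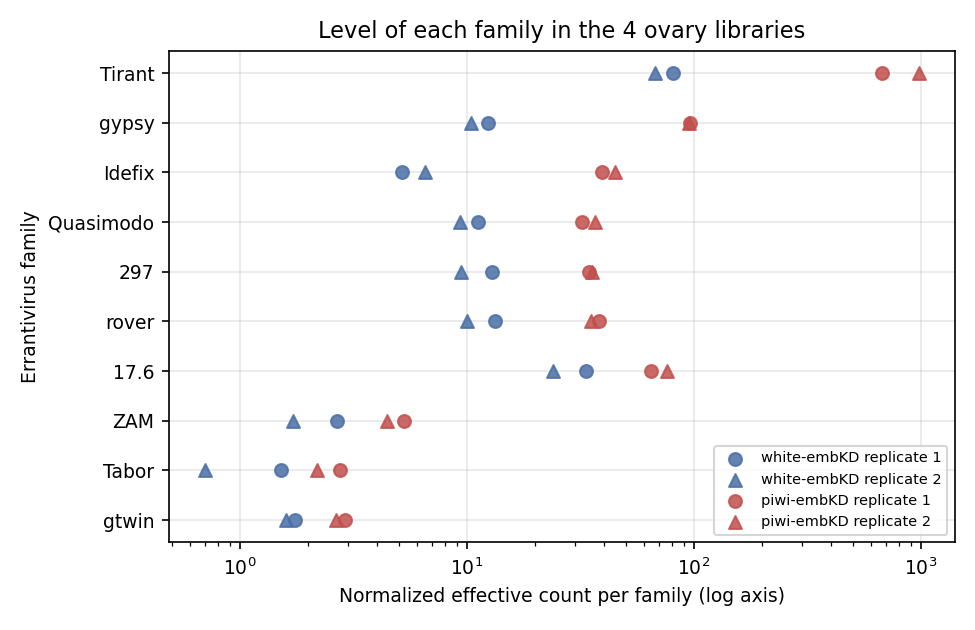
Normalized effective count of each family (log axis) in each of the 4 libraries. Blue symbols are white-embKD and red symbols piwi-embKD, with circles for replicate 1 and triangles for replicate 2. In each row both red symbols lie to the right of both blue ones, with the widest gaps for Tirant, gypsy and Idefix and levels under 6 in every library for ZAM, Tabor and gtwin.

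Tirant, a family with an envelope reading frame that is known to be repressed by piRNAs in the ovary, had the largest rise of the 10. Its level was 80.9 and 67.05 in white-embKD against 675 and 981 in piwi-embKD. The means were 74.0 ± 9.78 and 828 ± 216 (SD, n = 2 each), an 11.2-fold difference (log2 change 3.45 ± 0.19 SE, limma adjusted p = 0.000486). The lowest of the 4 ratios of a piwi-embKD to a white-embKD library was 8.34 and the highest 14.6. The piwi-embKD libraries differed from each other more for Tirant than for any other family, with replicate 2 at 1.45 times the level of replicate 1.

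The gypsy element is the type member of the group, is able to infect the germline from follicle cells and is the classical target of flamenco. It was at 12.3 and 10.4 in white-embKD and at 95.8 and 95.5 in piwi-embKD, so the piwi-embKD libraries were nearly equal. The means of 11.4 ± 1.33 and 95.6 ± 0.20 (SD, n = 2 each) differed 8.40-fold (log2 change 2.97 ± 0.12 SE, limma adjusted p = 0.000176). A related family, gtwin, was at 1.75 and 1.59 in white-embKD and 2.90 and 2.66 in piwi-embKD. Its 1.66-fold difference did not pass (log2 change 0.50 ± 0.24 SE, limma adjusted p = 0.252). On the log2(value + 0.995) scale, gypsy minus gtwin was 2.28 and 2.14 in white-embKD and 4.63 and 4.72 in piwi-embKD, a change of 2.47. For this and for every other comparison of a single value over 2 libraries against 2, an exact permutation test cannot give a two-sided p below 0.333, which is what it gave here.

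ZAM and Idefix are known to become active together in fly lines in which flamenco has lost part of its sequence. Idefix stood at 5.17 and 6.52 in white-embKD and at 39.2 and 44.7 in piwi-embKD. It rose 7.17-fold (log2 change 2.65 ± 0.16 SE, limma adjusted p = 0.000627), with ratios between single libraries of 6.01 to 8.63. ZAM stood at 2.67 and 1.72 in white-embKD and at 5.28 and 4.42 in piwi-embKD, and its 2.21-fold difference did not pass (log2 change 0.89 ± 0.25 SE, limma adjusted p = 0.0987). With 1 library left out, its limma adjusted p was 0.277 and 0.674 without white-embKD replicate 1 and 2, and 0.0573 and 0.0449 when replicate 2 or replicate 1, respectively, was the lone piwi-embKD library, where both values rest on the spread of the white-embKD pair alone. On the same log2(value + 0.995) scale, Idefix minus ZAM was 0.75 and 1.47 in white-embKD and 2.68 and 3.08 in piwi-embKD, a change of 1.77 (exact permutation p = 0.333). This pair and the pair of gypsy and gtwin were set side by side after their values were seen.

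The families 297 and 17.6 are related elements known from the earliest work on fly retrotransposons. The level of 297 was 12.9 and 9.43 in white-embKD and 34.5 and 35.7 in piwi-embKD (log2 change 1.59 ± 0.17 SE, limma adjusted p = 0.00457). The level of 17.6 was 33.5 and 23.9 in white-embKD and 64.9 and 75.98 in piwi-embKD (log2 change 1.28 ± 0.18 SE, limma adjusted p = 0.0117). The folds of the means were 3.15 for 297 and 2.45 for 17.6, and the ranges of their single-library ratios, 2.68 to 3.78 and 1.94 to 3.17, overlapped. Fragments that fit related families were shared out by a model before deposition, so the split between such families is uncertain.

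Quasimodo and rover are further gypsy-group families with an env-like reading frame. Quasimodo went from 11.2 and 9.33 in white-embKD to 32.2 and 36.7 in piwi-embKD, a 3.36-fold rise (log2 change 1.66 ± 0.15 SE, limma adjusted p = 0.00251). The level of rover went from 13.3 and 10.03 to 38.3 and 35.2, a 3.14-fold rise (log2 change 1.58 ± 0.17 SE, limma adjusted p = 0.00429). Quasimodo, 297 and rover thus held log2 changes within 1 SE of each other. Tabor was at 1.52 and 0.70 in white-embKD and at 2.75 and 2.18 in piwi-embKD. Its 2.23-fold difference did not pass (log2 change 0.74 ± 0.31 SE, limma adjusted p = 0.201). Its white-embKD libraries alone differed by more than a factor of 2, with replicate 2 at 0.46 of replicate 1.

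The 3 families that did not pass were also the 3 with fewest fragments. On the inferred depth, Tabor held 14 to 44, gtwin 32 to 46 and ZAM 34 to 84 effective counts per library, while no other family held fewer than 105 in any library. On the log2 scale with the pseudocount of 0.995, the change of families at such levels is understated. Their missing calls are therefore no sign that their RNA stayed level.

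By size of change the families spread over a wide range. The lowest single-library ratio of Tirant, gypsy and Idefix was 6.01, and the highest ratio of the other 7 families was 3.93. These groups were formed from the same values, so the gap between them is descriptive. Among the 107 tested transposon families ordered by log2 change, Tirant ranked 14, gypsy 21 and Idefix 22. Quasimodo, 297 and rover ranked 33, 34 and 35, 17.6 ranked 41, ZAM 58, Tabor 67 and gtwin 83.

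**Figure D2:**
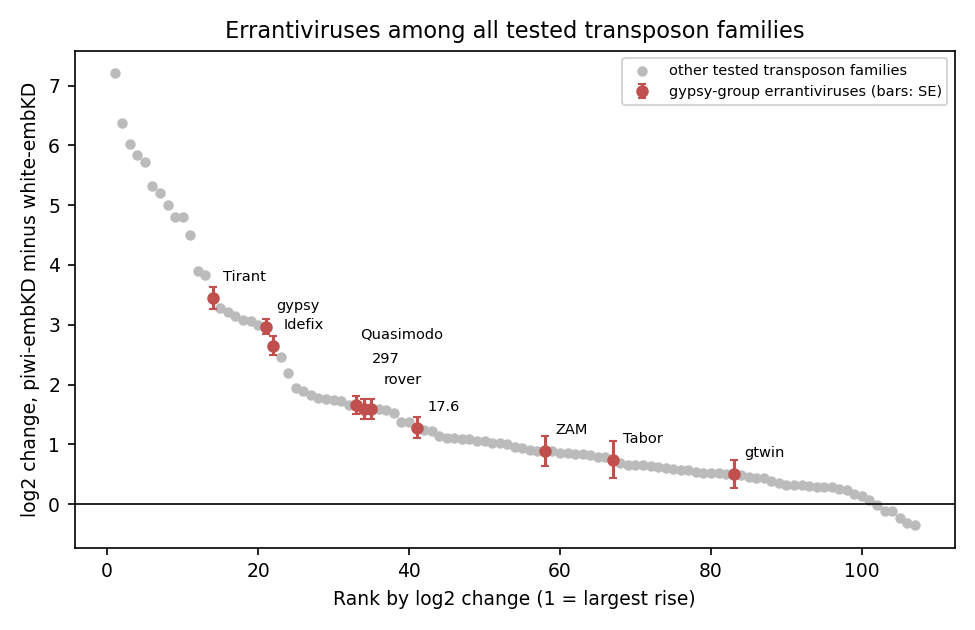
Log2 change (piwi-embKD minus white-embKD) of the 107 tested transposon families against their rank, with the 10 errantivirus families in red (bars, SE) and the other 97 in grey. The red points run from rank 14 (Tirant, 3.45) to rank 83 (gtwin, 0.50).

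Summed over the 10 families, the level was 175 and 141 in white-embKD and 991 and 1314 in piwi-embKD. The means of 158 ± 24.3 and 1152 ± 229 (SD, n = 2 each) differed 7.29-fold (exact permutation p = 0.333). Without Tirant the sum was 94.3 and 73.7 in white-embKD and 316 and 333 in piwi-embKD, a 3.86-fold difference. Tirant took 46.2% and 47.6% of the summed level in white-embKD and 68.1% and 74.7% in piwi-embKD. The share of 17.6 moved the other way, from 19.1% and 17.0% to 6.55% and 5.78%, although 17.6 itself rose. As a share of all transposon signal the 10 families held 4.48% and 3.57% in white-embKD and 3.77% and 3.62% in piwi-embKD. Both piwi-embKD shares lay between the white-embKD shares.

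**Figure D3:**
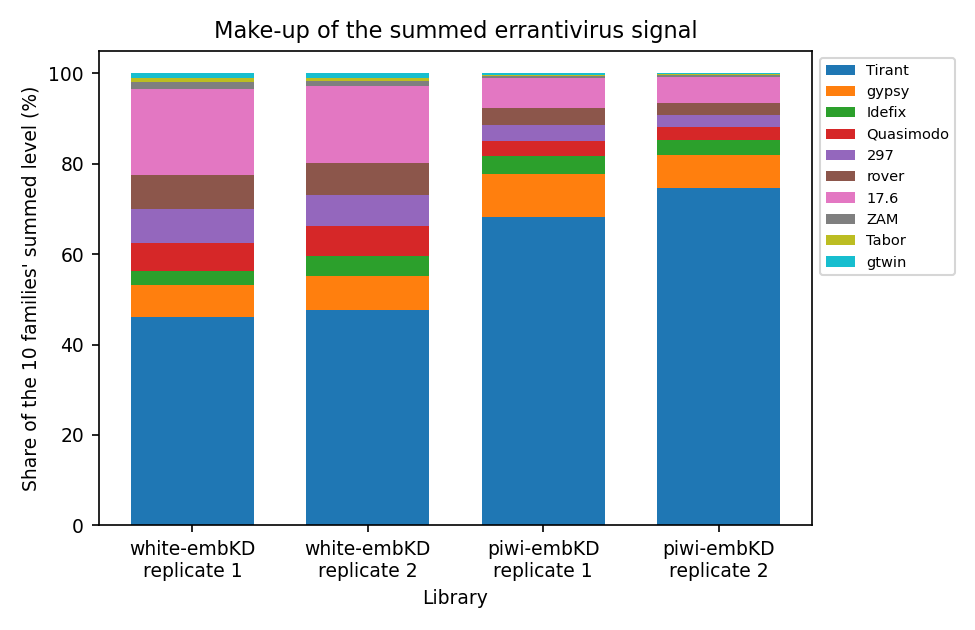
Stacked bars of the share of the 10 families' summed level held by each family, in percent, 1 bar per library. Tirant holds 46.2% and 47.6% of the white-embKD bars and 68.1% and 74.7% of the piwi-embKD bars. Shares are of normalized effective counts and are not corrected for length.

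The replicates of a group differed from each other as well. In white-embKD 9 of the 10 families, all but Idefix, were higher in replicate 1 than in replicate 2, as were 69 of the 107 tested transposon families. In piwi-embKD 5 families were higher in replicate 2, the library with less piwi RNA, and 5 in replicate 1. The 5 were Tirant, Idefix, Quasimodo, 297 and 17.6, with replicate 2 at 1.03 to 1.45 times replicate 1. Over all tested transposon families, 56 of 107 were higher in piwi-embKD replicate 2. With 2 libraries, no relation between the level of piwi and that of the families could be tested.

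**Figure D4:**
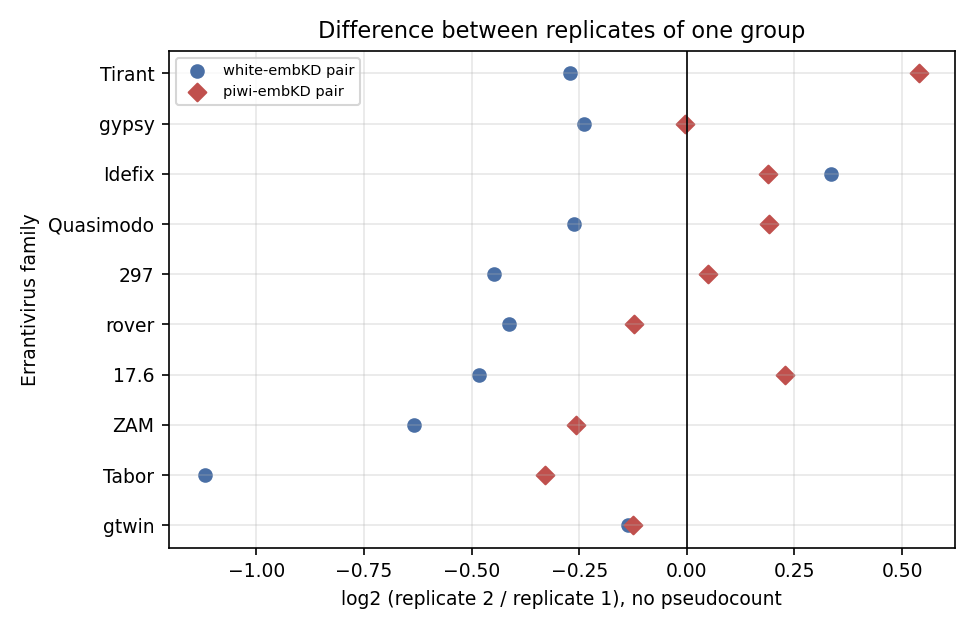
Log2 ratio of replicate 2 to replicate 1 for each family, without a pseudocount, for the white-embKD pair (blue circles) and the piwi-embKD pair (red diamonds). Blue points lie left of 0 for 9 of 10 families, and red points lie on both sides.

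Somatic genes of the ovary were higher in the same libraries. All 12 follicle cell markers were higher in both piwi-embKD libraries, and of 10 that passed the minimum 6 were called higher. This count fell without either white-embKD library and grew without either piwi-embKD library. Their median log2 change was 0.82, and their summed level was 1408 to 1449 in white-embKD and 3253 to 3297 in piwi-embKD. No marker was at 0 in all libraries, and castor (cas) and slow border cells (slbo) were under the minimum. The yolk protein genes Yp1, Yp3 and Yp2, which follicle cells transcribe, rose by log2 changes of 1.26, 1.23 and 1.18. The gene tj, a transcription factor that marks follicle cells and is known to promote piwi expression there, rose from 16.6 and 16.3 to 34.5 and 29.95 (log2 change 0.92 ± 0.13 SE, limma adjusted p = 0.0124). With white-embKD replicate 1 or replicate 2 left out, tj did not pass (limma adjusted p = 0.0734 and 0.0990).

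Eggshell genes, which late follicle cells transcribe, rose as well. All 7 vitelline membrane genes were called higher, with a median log2 change of 2.38, the largest for Vml (2.60), Vm34Ca (2.57), Vm32E (2.55) and Vm26Ac (2.38), and a summed level of 607 to 738 in white-embKD and 3245 to 4360 in piwi-embKD. All 9 chorion genes were called higher, though not all of them in each fit with 1 library fewer. Their median was 1.47, Cp18 (1.76), Cp7Fc (1.74), Cp7Fb (1.54) and Cp16 (1.48) rose most, and their summed level was 3131 to 3134 against 6881 to 9394. Of 8 genes of the muscle sheath 4 were called higher, Mhc (0.91), Prm (0.86), Act57B (0.82) and sls (0.59). These calls were lost when either white-embKD library was left out. The summed level of the 8 genes was 169 to 177 against 244 to 309. Of 13 germline markers 0 were called in limma, with p under 0.05 before adjustment for 1 higher and 7 lower. Some germline markers were called, more of them lower than higher, when either piwi-embKD library was left out. Their calls relative to the follicle cell markers are given below, and their summed level was 7276 to 7562 against 6200 to 6516. Of 7 gut genes 3 were called lower, Jon25Bii (−3.34), Jon25Bi (−3.33) and LysB (−2.70), and more were when either piwi-embKD library was left out. The summed level of the 7 genes was 140 to 153 in white-embKD, 46.9 in piwi-embKD replicate 1 and 0.67 in replicate 2. Of 5 fat body genes 2 were tested and 0 called (0 also before adjustment in limma), though a call appeared without piwi-embKD replicate 2. Their summed level was 136 to 140 against 137 to 171. In these bulk samples a larger number of follicle cells and more RNA per cell cannot be told apart, and the tissue from which errantivirus RNA came was not measured.

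Dividing each library by the median ratio of its follicle cell markers expresses the families relative to those markers, not to all transcripts of these cells. It moved the median log2 change of all features to −0.89, and with it all 13 germline markers and 18 of the 20 somatic piRNA pathway genes were called lower, piwi among them (−2.13, limma adjusted p = 0.0015). All 7 vitelline membrane genes and 5 of the 9 chorion genes, which follicle cells also transcribe, were still called higher. On this scale 6 of the 10 families were called higher and 0 lower. Of the other named gypsy-group families 6 were called higher and 0 lower as well, and of the numbered gypsy families 2 and 2. The share of all features called was worked out only on the authors' scale. Relative to the markers Tirant rose by 2.57 ± 0.17 SE, gypsy by 2.12 ± 0.20 and Idefix by 1.84 ± 0.22 on the log2 scale, and Quasimodo, 297 and rover by 0.82, 0.75 and 0.75 (limma adjusted p between 0.000147 and 0.0168 for these 6). The call of 17.6 was lost (0.42 ± 0.20 SE, limma adjusted p = 0.0832). ZAM and Tabor were at 0.22 and 0.21, and gtwin changed sign to −0.10 (limma adjusted p = 0.747). The summed level of the 10 families was 3.93-fold higher on this scale.

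**Figure D5:**
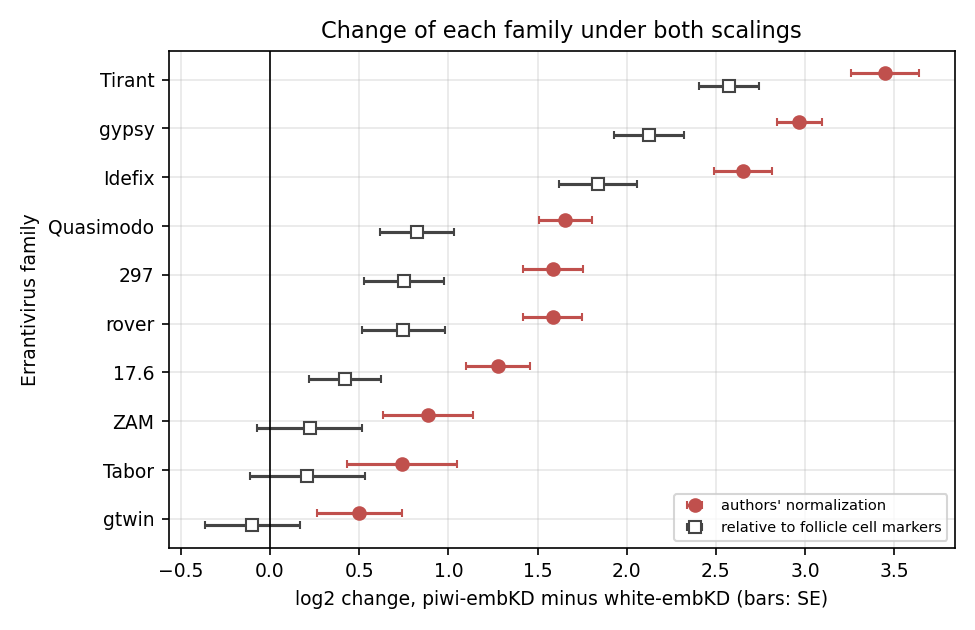
Log2 change of each family, piwi-embKD minus white-embKD, with SE bars, under the authors' normalization (filled red circles) and relative to the follicle cell markers (open squares). Tirant, gypsy and Idefix stay at 1.84 or more on both scales, and gtwin crosses 0.

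Few genes of the somatic piRNA pathway passed the test. Of 20 measured, 1 was called higher, tj, and 1 lower, armi, with a median log2 change of −0.16 (0 higher and 18 lower relative to the follicle cell markers). Both calls were lost when either white-embKD library was left out. More genes, mostly lower, were called when either piwi-embKD library was left out. The RNA helicase gene armi, which acts in the making of piRNAs, fell from 315 and 319 to 204.99 and 221 (log2 change −0.57 ± 0.09 SE, limma adjusted p = 0.0184). It did not pass with white-embKD replicate 1 or replicate 2 left out (limma adjusted p = 0.218 and 0.27). The gene fs(1)Yb, the core of the Yb body in which somatic piRNAs are made, was low, at 0.66 and 1.34 in white-embKD and 1.502 and 1.71 in piwi-embKD (log2 change 0.40, limma adjusted p = 0.448). The nuclease gene zuc, which cuts piRNA precursors, stood at 34.4 and 31.7 against 25.7 and 21.9 (log2 change −0.46, limma adjusted p = 0.103). RNA of the flamenco locus had no matched row and was not analysed here.

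Other families of the gypsy group were set beside the 10 errantiviruses. The 10 were chosen by name, and whether these other families are errantiviruses too was not assessed here. Of 9 tested numbered gypsy families (of 11 measured) 3 were called higher, gypsy7, gypsy12 and gypsy6, with log2 changes of 1.78, 1.75 and 1.01. With white-embKD replicate 1 left out the call of gypsy6 was lost, and with white-embKD replicate 2 left out those of gypsy6 and gypsy7 were. Of 9 other named gypsy-group families 6 were called higher, led by Burdock at 5.21. The mean log2 change was 1.73 for the 10 errantiviruses, 0.63 for the numbered families and 2.44 for the other named families. Per library, the mean log2 level of the errantiviruses minus that of the numbered families was 1.15 and 0.86 in white-embKD and 2.04 and 2.16 in piwi-embKD, a change of 1.10 (exact permutation p = 0.333). Against the other named families it was −0.69 and −0.88 in white-embKD and −1.36 and −1.62 in piwi-embKD, a change of −0.70 (exact permutation p = 0.333).

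The families outside the group whose profiles over the 4 libraries lay nearest to the errantiviruses' median profile were of 3 different classes. They were the DNA transposon transib3, the LTR element invader1 and the LINE Cr1a, at Euclidean distances of 0.26, 0.28 and 0.31 on the log2 scale, with log2 changes of 1.53, 1.38 and 1.73. With 4 libraries this likeness rests mostly on the size of the change.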

How the data were processed

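Ovary RNA depleted of ribosomal RNA was sequenced as paired reads of 150 nt in 4 libraries, per the labels' protocols. Sample titles gave the groups. Each library has 1 table, in which the authors deposited a signal per target. Per the file headers and names this signal is a normalized effective count from eXpress. The submitters' processing notes name Bowtie2, STAR, Cufflinks and dm3 without a role or version. Which annotation, strand setting and normalization factor were used is not given in these sources. Columns summed to between 970339.8 and 1017515. The step of 1e-06 effective counts behind the inferred depth is an assumption, and 3 counts, the limit a count of 0 allows, equal a level of 0.148 to 0.188. Values were not whole reads, so no count test was run.

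Transcripts were named with an NCBI RefSeq table of Release 6 (95.7% of 29511 matched), used for names alone, and summed per gene. Comparison was by limma 3.58.1 (R 4.3.3), its variance trended on intensity, of log2(value + 0.995), for features with a mean of at least 0.995, which is the mean column total divided by 1e+06. This kept 7779 genes, 286 transcripts without a match and 107 transposon families. Two-sided p-values were Benjamini-Hochberg adjusted across the 8172 features. Fold differences are of mean levels, without the pseudocount. The step was run on simulated data that gave every feature the same spread and no counting noise. That run does not vouch for calls at low levels or with unequal replicates. The families and gene lists were chosen with earlier results of these data known. All 10 families are described. Of the lists, the genes named were piwi, w, fs(1)Yb and zuc, those called in the pathway list, and up to 4 called markers of each cell type. Of the pathway list, His1 and flam had no match. Transposon sequences were not used here.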

Additional observations from a re-analysis of the deposited data

How the results depend on the processing

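The count of 7 families called higher was 7 with a smaller or larger pseudocount, a stricter filter (which left ZAM, Tabor and gtwin untested), median-of-ratios scaling, trimmed-mean scaling on genes or no intensity trend, and 0 were called lower in any alternative run. It was 1 (gypsy) with no filter on low values, 3 with transcripts left unsummed, and 6 relative to follicle cell markers. Fits with 1 library fewer kept the calls of the 7 families, and ZAM passed as well without piwi-embKD replicate 2. The runs with no filter and with transcripts left unsummed left the log2 changes as they were and tested more features (16179 and 14790). Both also re-estimated the variance trend over those features, so the number of tests was not all that changed. Of 127 single-family values under an alternative, 114 kept direction and side of the threshold. The only reversal was gtwin, at −0.098 relative to follicle cell markers. The summed fold difference of 7.29 was 3.93 relative to those markers and lay between 6.27 and 8.32 with 1 library fewer. The changes against the numbered and the other named gypsy families (1.10 and −0.70) lay between 0.95 and 1.24 and between −0.83 and −0.58 with 1 library fewer. No paired fit was made, because the labels number only the second replicate of each group and a number given in accession order links no libraries. With 2 libraries a group, and under 100 effective counts per library for ZAM, Tabor and gtwin, the differences of 1.66-fold to 2.23-fold seen for these families were not resolved.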
